A study of Arabidopsis thaliana with 12 samples.

Results

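The class III peroxidase genes described here are 54 loci, chosen by their gene identifiers from the 33655 features of one count table. They are 54 of the 73 family genes considered; the other 19 are given briefly further on. All seedlings belonged to Arabidopsis thaliana and were 6 days old, and every group held 3 libraries. The genotypes were wild-type Col-0 and spaQ, which is mutated in the 4 SPA genes, and each was sampled at 22 °C and at 28 °C. Before the treatment came 3 days of cold stratification in the dark and 5 days of growth at 22 °C, on medium without sucrose and in white light of 25 µmol. The labels disagree on the treatment's length, giving 24 h for the series and 4 h in the sample protocols, which name 22 °C for every library; temperatures here follow the titles. The labels name no alleles of spaQ. They also do not say that replicates came from separate cultures, so the p-values measure only the spread between these libraries. The SPA proteins work with COP1 in a ubiquitin ligase that holds back light responses, and the series asks how they act on gene expression in warmth.

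Class III peroxidases are secreted haem enzymes found in plants. In the cell wall they use hydrogen peroxide to couple phenolics, which stiffens the wall and polymerises monolignols into lignin. They can also produce reactive oxygen species, which loosen the wall during growth or take part in the apoplastic burst of defence. Many members are known from roots, where some act in root hairs and others in the lignin of the Casparian strip, the barrier of the endodermis. No member's sequence is printed, since the counts name no genome build.

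The assay, 3′ Tag-Seq, reads only the 3′ end of a transcript. Counts therefore do not grow with transcript length, and levels of different genes can be set side by side. Library totals ran from 2609808 to 9390725 counts, and levels are given as CPM, counts scaled to a common library size with TMM factors. The limit that a count of 0 allows, set at 3 counts, lay between 0.279 and 1.25 CPM per library and covers counting error only. SPA1, SPA2 and SPA3 were lower in every spaQ library than in every Col-0 library, and SPA4 was higher; since the alleles are not given, 3′ tags of these genes may lie outside the mutated parts.

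Root markers differed between groups and between spaQ libraries, and they are given first because many peroxidases are root genes. The 4 root hair markers (COBL9, EXPA7, EXPA18 and RSL4) summed to 15 to 22 CPM in 22 °C Col-0 and to 0.257 to 0.922 CPM in 28 °C Col-0. In spaQ their sums were 11.6, 1.92 and 0.417 CPM at 22 °C and 0, 12.5 and 1.23 CPM at 28 °C for replicates 1, 2 and 3. In this sum replicate 1 at 22 °C and replicate 2 at 28 °C therefore stood apart from the other spaQ libraries. The 7 endodermis markers (CASP1 to CASP5, ESB1 and MYB36) showed the same 2 libraries on top, with sums of 57.2, 39.5 and 35 CPM in 22 °C spaQ and 15.8, 49.2 and 8.9 CPM at 28 °C, against 86.1 to 94.2 CPM in 22 °C Col-0 and 25.4 to 32.1 CPM at 28 °C. The 13 other root markers summed to 131, 83.1 and 93 CPM in 22 °C spaQ and to 156, 129 and 102 CPM at 28 °C, where replicate 1 was highest. In Col-0 these summed to 215 to 255 CPM at 22 °C and 170 to 270 CPM at 28 °C. Below, the 2 libraries are called rich in root markers for their root hair and endodermis sums only. All 24 root markers together summed to 319 to 370.3, 196 to 303, 125 to 200.2 and 112 to 191 CPM, in the order of 22 and 28 °C Col-0 and 22 and 28 °C spaQ. Of the 24, NRT2:1 was at 0 in all spaQ libraries at 22 °C. Of the 18 root markers tested, 14 fell and 2 rose with warmth in Col-0. The 5 leaf markers summed to 34759.7 to 38207 CPM in 22 °C Col-0 and 14128 to 16304 CPM in 28 °C Col-0. For replicates 1, 2 and 3 of spaQ, the leaf sums were 41609, 36312 and 39930 CPM at 22 °C and 26656.5, 31951 and 19894 CPM at 28 °C. The 2 libraries called rich in root markers thus had the highest leaf sums of their groups as well. Most of the leaf sum was RBCS1A, with means of 20210 and 29337.5 CPM in 22 °C Col-0 and spaQ. Singly, 1 of the 5 was called higher and 3 lower in spaQ than in Col-0 at 22 °C, and 1 higher and 2 lower at 28 °C. In whole seedlings, fewer cells of a type and less RNA per cell cannot be told apart. The part of root content in the peroxidase results was not tested; where a member's call in spaQ or in the interaction differed without these 2 libraries, both values are given beside the gene. That fit leaves 2 libraries in each spaQ group and was added after seeing the data. For members high in those 2 libraries, leaving them out narrows the spread within groups. Adjusted p-values of that fit are therefore not independent of the choice of libraries and are no separate test.

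Of the 54 members, 51 had enough counts to be tested, and 46 of these were called in at least one of the 5 contrasts (edgeR quasi-likelihood test, Benjamini-Hochberg adjusted p under 0.05 over all 17841 genes tested), or 90.2% beside 66.1% of all genes. Warmth changed 37 members in Col-0, of which 17 rose and 20 fell. That is 72.5% of the 51, where 40.8% of all genes were called, 18.9% higher and 21.9% lower. The members were chosen with earlier results of these data known. How that choice bears on these shares, here and below, was not tested. The median log2 fold change of the 51 was −0.26, beside −0.02 for all genes. In spaQ the same temperature step changed 8 members, 1 up and 7 down, which is 15.7% beside 12.4% of all genes (6.55% higher, 5.87% lower), with medians of −0.45 and 0.02. This count depended on single libraries, being 4 without replicate 1 of 22 °C spaQ, 5 without replicate 1 of 28 °C spaQ, 26 without replicate 2 of 28 °C spaQ and 17, 5 up and 12 down, without the 2 libraries rich in root markers. In the same order, these fits called 1088 of 18185, 1371 of 18271, 4024 of 18171 and 2695 of 18126 genes. With all libraries 2217 of 17841 genes were called. Of those 17, 7 were among the 8. Fitted on the spaQ libraries alone, the count was 1, AT5G51890, and the other 7 had adjusted p from 0.053 to 0.154. In that fit 418 of 15850 genes were called.

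Set against Col-0 at 22 °C, spaQ had 14 members higher and 18 lower, 62.7% of the 51 beside 42.5% of all genes (20.7% higher, 21.7% lower), and the medians were −0.80 and −0.05. At 28 °C, 9 members were higher and 12 lower in spaQ, 41.2% beside 30.9% (17.4% higher, 13.5% lower), with medians of 0.24 and 0.03. Scaled by library totals instead of TMM, the split at 28 °C was 3 higher and 13 lower. That scaling called 6514 of 17841 genes, 1848 of them higher, where TMM called 5519, 3103 of them higher. The warm responses of the genotypes were also compared directly, as the log2 change in spaQ less the log2 change in Col-0, and this interaction was called for 18 members. They made up 35.3% of the 51, where 11.9% of all genes were called. The Col-0 libraries at 22 °C serve as controls both for warmth in Col-0 and for spaQ at 22 °C, so the values of those 2 contrasts are not independent of each other. Left without each of the 12 libraries in turn, 32 of the 37 calls for warmth in Col-0 held in every case, as did 3 of the 8 in spaQ, 23 of the 32 for spaQ against Col-0 at 22 °C, 11 of the 21 at 28 °C and 5 of the 18 interactions. Leaving out both libraries rich in root markers, 43 members were called for warmth in Col-0, where 6 were added and 0 lost. Calls over all genes grew as well, to 8705 of 18126 from 7283 of 17841. The additions in Col-0 included AT4G08780 and PA2, at 1.74 (adjusted p = 0.0199) and 2.05 (adjusted p = 0.0455). Against Col-0, 15 members were then higher and 23 lower at 22 °C, and 10 higher and 17 lower at 28 °C, where 11 calls were added and 5 lost and the median was −0.81. Of the 18126 genes in that fit, 8255 were called at 22 °C, 4236 of them higher. At 28 °C 6683 were called, 3525 of them higher, and the all-gene median was −0.04.

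**Figure D1:**
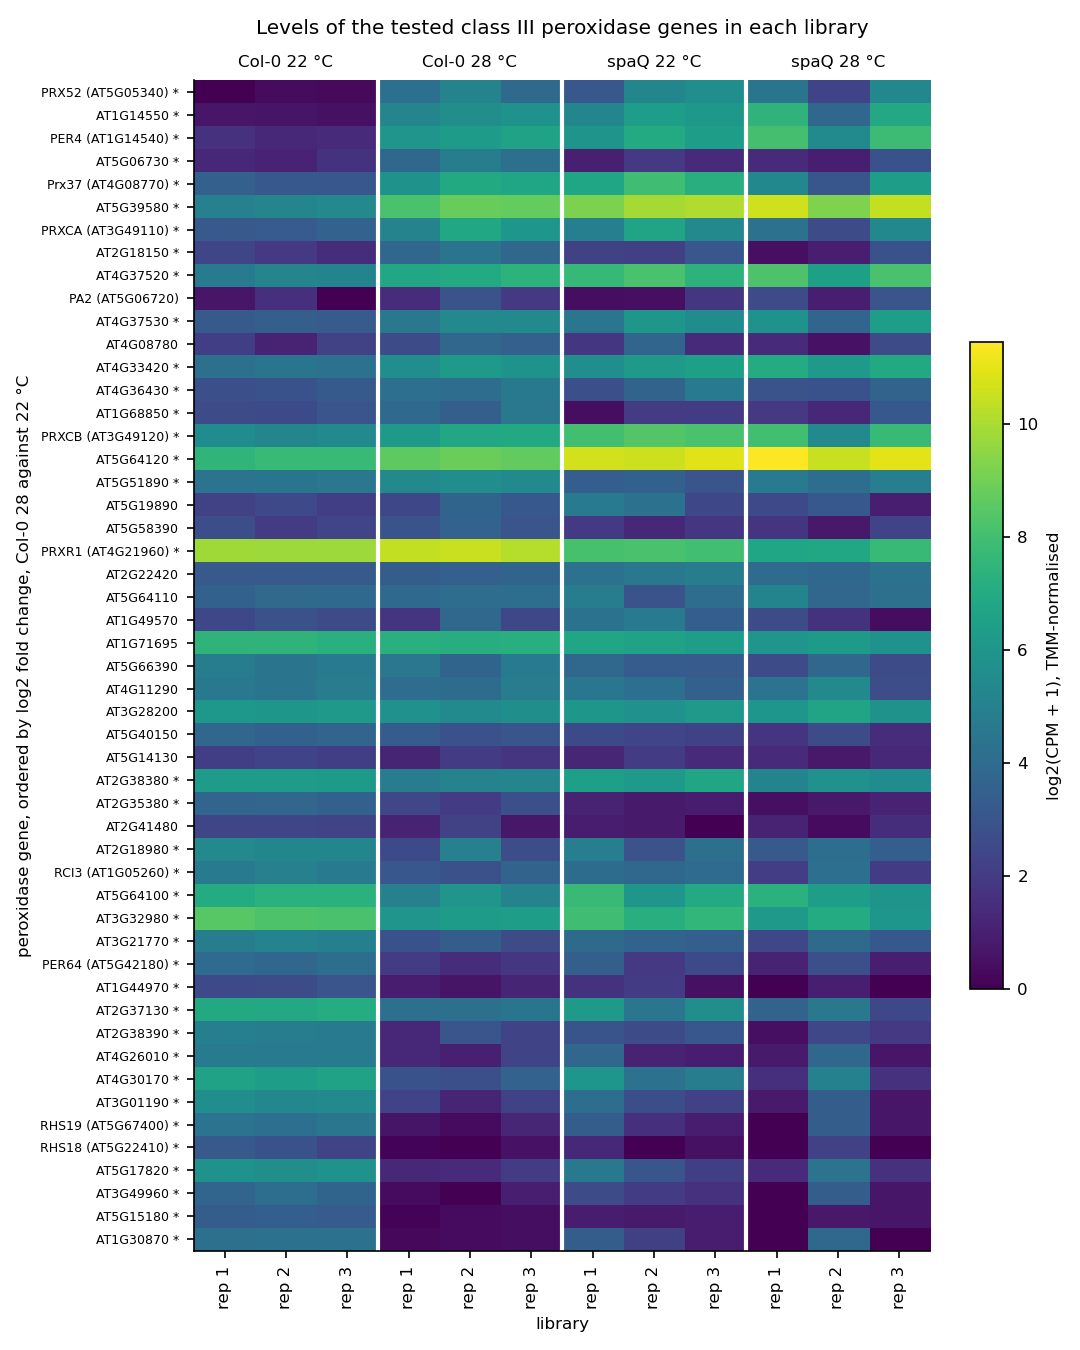
Each row is one of the 51 tested peroxidase genes and each column one of the 12 libraries; colour gives log2(CPM + 1), and an asterisk marks the 37 genes called for warmth in Col-0. Rows at the bottom are bright in the Col-0 libraries at 22 °C and dark in those at 28 °C, and in 28 °C spaQ they are brightest in replicate 2.

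A few genes supplied most of the peroxidase counts, and which genes did so differed between genotypes. Summed over the 54 members, the level was 2719 to 2758 CPM in 22 °C Col-0, 3078 to 3810.0 CPM in 28 °C Col-0, 4437 to 5175 CPM in 22 °C spaQ and 3233 to 6337 CPM in 28 °C spaQ. PRXR1 (AT4G21960) held 31.8% to 32.8% of the members' counts in 22 °C Col-0 and 34.1% to 44.1% at 28 °C, but 4.88% to 6.17% and 1.74% to 3.92% in spaQ. AT5G64120, also known as PRX71 and linked to cell wall strengthening and reduced growth, held 6.43% to 7.97% and 12% to 12.7% in Col-0 and 31.5% to 38.4% and 38.7% to 45.3% in spaQ. In every spaQ library AT5G64120 was the most counted member, and in every Col-0 library PRXR1 was. The 10 most counted members, by their mean over all 12 libraries, held 66.4% to 68.2% of the counts in 22 °C Col-0. In the other 3 groups they held 81% to 89.4%. Members high only outside 22 °C Col-0 entered this choice, such as PER4 with a mean of 1.69 CPM in that group. The lower share in 22 °C Col-0 is therefore partly set by the choice.

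**Figure D2:**
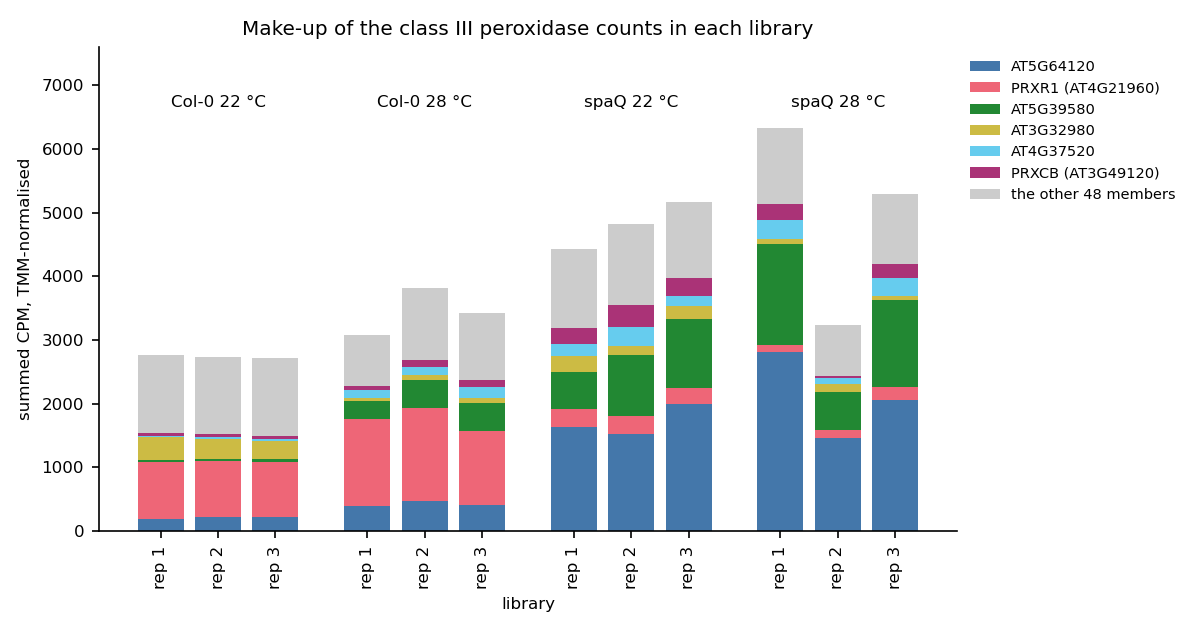
Bars give the summed TMM-normalised CPM of the 54 members in each library, divided among the 6 genes with the highest mean level and the other 48 members. PRXR1 fills the largest named block in the 6 Col-0 libraries and AT5G64120 in the 6 spaQ libraries.

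AT5G64120 measured 177, 210.2 and 217 CPM in 22 °C Col-0, 392, 475 and 411 in 28 °C Col-0, 1633, 1519 and 1989 in 22 °C spaQ and 2812, 1463 and 2049 in 28 °C spaQ. The 4 groups form 3 levels: Col-0 at 22 °C lowest, Col-0 at 28 °C above it with no overlap, and both spaQ groups above every Col-0 library and overlapping each other. Warmth raised it in Col-0 by a log2 change of 1.08 ± 0.20 (SE, adjusted p = 0.00111). In spaQ it was higher than in Col-0 by a log2 change of 3.09 ± 0.22 (SE, adjusted p = 1.33e-06) at 22 °C and by a log2 change of 2.31 ± 0.21 (SE, adjusted p = 5.31e-06) at 28 °C, while the warm response within spaQ was 0.30 ± 0.20 (SE, adjusted p = 0.357) and was not called. The interaction of −0.78 (adjusted p = 0.0918) was not called either. These calls held without any one library.

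AT5G39580, a member of the list known from root hairs, followed a steeper course. Its levels were 31.1, 35.8 and 40.5 CPM in 22 °C Col-0, 284, 442 and 426 in 28 °C Col-0, 591, 965 and 1092 in 22 °C spaQ and 1592, 599 and 1366 in 28 °C spaQ. All Col-0 libraries at 28 °C lay above those at 22 °C, and every spaQ library lay above every Col-0 library. The log2 fold change with warmth was 3.42 ± 0.35 (SE, adjusted p = 2.97e-05) in Col-0 and 0.43 ± 0.31 (SE, adjusted p = 0.411) in spaQ, and the difference between the responses, −2.99 ± 0.46 (SE, adjusted p = 0.00353), was called. Against Col-0, spaQ was higher by a log2 change of 4.62 ± 0.37 (SE, adjusted p = 2.91e-06) at 22 °C and 1.63 ± 0.32 (SE, adjusted p = 0.0019) at 28 °C.

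PRXR1 moved in opposite directions with warmth in the 2 genotypes. It read 904, 886 and 866 CPM in 22 °C Col-0, 1357, 1449 and 1164 in 28 °C Col-0, 274, 284 and 252 in 22 °C spaQ and 110.5, 116 and 207 in 28 °C spaQ. Neither genotype's temperature groups overlapped, and every spaQ library lay below every Col-0 library. It rose by a log2 change of 0.58 ± 0.19 (SE, adjusted p = 0.0297) in Col-0 and fell in spaQ, with a log2 change of −0.90 ± 0.20 (SE, adjusted p = 0.0125), and the interaction was −1.48 ± 0.28 (SE, adjusted p = 0.0078). In spaQ it was lower than in Col-0, at a log2 change of −1.71 ± 0.20 (SE, adjusted p = 4.02e-05) at 22 °C and −3.19 ± 0.21 (SE, adjusted p = 5.45e-07) at 28 °C. The rise in Col-0 was small and lost its call in 5 of the 12 fits that left out one library, all of them Col-0 libraries (adjusted p up to 0.0931), whereas the fall and the interaction kept theirs in all 12. The fall was not called when the spaQ libraries were fitted alone, with a log2 change of −0.91 (adjusted p = 0.0911).

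The list of 8 peroxidases linked to lignin holds 2 of the 3 members with the largest rises in Col-0, PRX52 and PER4, the other one being AT1G14550. Of its 7 tested members, 4 rose with warmth in Col-0 and 0 fell, with a list median of 1.08; in spaQ, 1 rose. At 22 °C, 4 were higher and 2 lower in spaQ than in Col-0, and at 28 °C, 2 were higher and 1 lower. In this order, calls made up 57.1%, 14.3%, 85.7% and 42.9% of the 7, beside 40.8%, 12.4%, 42.5% and 30.9% of all genes. PER4 (AT1G14540), known from lignification of the stem, had 2.11, 1.4 and 1.57 CPM in 22 °C Col-0, 62.4, 79.4 and 97.2 in 28 °C Col-0, 60.7, 129 and 85.1 in 22 °C spaQ and 267, 44.3 and 231 in 28 °C spaQ. It was near the detection limit in 22 °C Col-0 and far above it in every other library. The log2 fold change was 5.55 ± 0.72 (SE, adjusted p = 9.97e-05) with warmth in Col-0 and 5.74 ± 0.72 (SE, adjusted p = 6.97e-05) for spaQ at 22 °C, while in spaQ warmth gave 0.99 ± 0.47 (SE, adjusted p = 0.195) and the interaction was −4.56 ± 0.89 (SE, adjusted p = 0.00924). With the 2 libraries rich in root markers left out, PER4 was called for warmth in spaQ, at 1.21 (adjusted p = 0.00223), and was higher in spaQ than in Col-0 at 28 °C, at 1.59 (adjusted p = 1.76e-05), against 1.17 (adjusted p = 0.0758) with all libraries.

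PRX52 (AT5G05340), which acts in the lignin of stem fibres, was counted 2 times in all Col-0 libraries at 22 °C together. Its levels were 0, 0.28 and 0.224 CPM in 22 °C Col-0, 17.2, 34.4 and 14.5 in 28 °C Col-0, 7.73, 36.8 and 48 in 22 °C spaQ and 21, 3.91 and 40.2 in 28 °C spaQ. The 3 other groups overlapped one another and none reached down to Col-0 at 22 °C. With so few counts in the low group, ratios were taken from counts pooled over the libraries of each group. That of 28 °C Col-0 to Col-0 at 22 °C was 108, with an exact 95% counting interval of 29.8 to 898. That of spaQ to Col-0 at 22 °C was 133, with an interval of 36.5 to 1106. These intervals cover counting error only and leave out the spread between libraries. Both differences were called (adjusted p = 0.00226 and 0.0014), as was the interaction (adjusted p = 0.018), which lost its call without each Col-0 library at 22 °C in turn (adjusted p up to 0.057).

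AT5G51890 was the only member called as rising with warmth in both genotypes when all libraries were fitted; PER4, AT1G14550 and AT4G33420 joined it without the 2 libraries rich in root markers. It showed 19.6, 21.2 and 22.2 CPM in 22 °C Col-0, 40.8, 47.8 and 43.8 in 28 °C Col-0, 9.58, 10.7 and 7.09 in 22 °C spaQ and 26.1, 16.6 and 28.8 in 28 °C spaQ. Within each genotype the libraries at 28 °C lay above those at 22 °C, and spaQ lay below Col-0 at the same temperature. The warm response was 1.06 ± 0.18 (SE, adjusted p = 0.000558) in Col-0 and 1.35 ± 0.21 (SE, adjusted p = 0.00223) in spaQ, and their difference of 0.29 ± 0.28 was not called (adjusted p = 0.552). In spaQ it was lower, at a log2 change of −1.19 (adjusted p = 0.000849) at 22 °C and −0.90 (adjusted p = 0.0022) at 28 °C. The 5 xylem markers (XCP1, XCP2, IRX1, IRX3 and CESA4), all detected in every library, summed to 103 to 112 CPM in 22 °C Col-0 and 115 to 133 CPM at 28 °C, but to 27.1 to 38.7 and 44.5 to 63 CPM in spaQ. All 5 were lower in spaQ at both temperatures, and their part in this result was not tested. AT5G51890 also overlaps a gene on the other strand, whose reads cannot be told apart without strand.

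The remaining lignin-linked members were less abundant. AT2G22420 was higher in 22 °C spaQ, with 18.5, 23 and 28.4 CPM against 8.14, 8.11 and 8.5 CPM in Col-0 and a log2 change of 1.46 ± 0.20 (SE, adjusted p = 0.000126). It was also higher at 28 °C by a log2 change of 0.55 (adjusted p = 0.0407), and its interaction was −0.91 (adjusted p = 0.0497); these 2 calls were lost in 8 and 10 of the 12 fits without one library (adjusted p up to 0.171 and 0.117). PRX25 (AT2G41480) had 4.22, 4.19 and 4.03 CPM in 22 °C Col-0 and 0.841, 0.766 and 0 in 22 °C spaQ. It was lower in 22 °C spaQ, at a log2 change of −2.68 ± 0.74 (SE, adjusted p = 0.0115), and in Col-0 its warm response of −1.45 (adjusted p = 0.0567) was not called. PA2, or PRX53 (AT5G06720), had between 0 and 7.06 CPM and was called in none of the 5 contrasts. PRX2 (AT1G05250) had no counts.

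**Figure D3:**
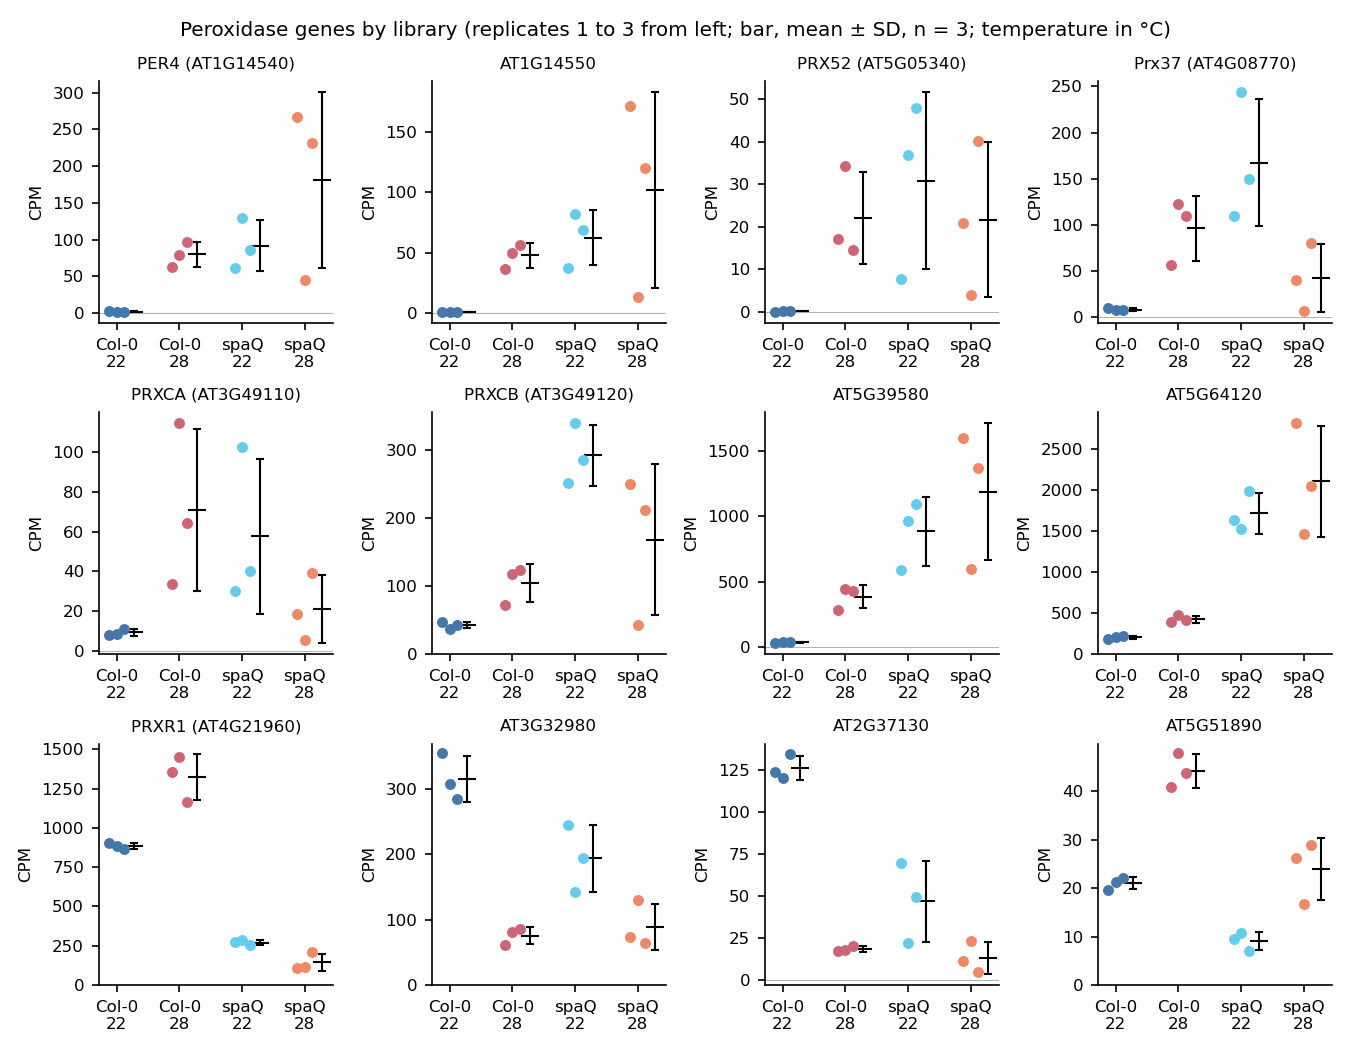
Each panel plots the TMM-normalised CPM of one gene in the 12 libraries, coloured by group, with the mean ± SD (n = 3) beside each group. PER4, AT1G14550 and PRX52 lie at or near 0 in 22 °C Col-0 and above it in every other group, while PRXR1 is lower in all spaQ libraries and AT3G32980 and AT2G37130 are highest in 22 °C Col-0.

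AT1G14550 lies next to PER4 and its coding sequence is 72.3% identical. It had 0.603, 0.559 and 0.447 CPM in 22 °C Col-0, 36.4, 49.6 and 56.6 in 28 °C Col-0, 37, 82 and 68.4 in 22 °C spaQ and 172, 13 and 121 in 28 °C spaQ. As with PER4, Col-0 at 22 °C did not overlap any other group, and the lowest of the other libraries was replicate 2 of 28 °C spaQ. The log2 fold changes were 6.42 ± 1.08 (SE, adjusted p = 0.000552) with warmth in Col-0, 6.79 ± 1.08 (SE, adjusted p = 0.000374) for spaQ at 22 °C and −5.70 ± 1.34 (SE, adjusted p = 0.0189) for the interaction. The last lost its call without each Col-0 library at 22 °C in turn (adjusted p up to 0.0603). Its change in spaQ was 0.71 (adjusted p = 0.472) with all libraries and 0.94 (adjusted p = 0.00798) without the 2 rich in root markers. At 28 °C the difference of spaQ from Col-0 was 1.08 (adjusted p = 0.181) and 1.57 (adjusted p = 1.73e-05) in these fits.

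The 7 close relatives of horseradish peroxidase C include PRXCA and PRXCB (also PRX33 and PRX34), which produce hydrogen peroxide in the apoplastic oxidative burst. In Col-0, 3 of the 7 rose with warmth and 3 fell, and the list median was 1.31. In spaQ 0 rose and 3 fell, with a median of −1.12. The interaction was called for 3, all negative, with a list median of −2.11. At 22 °C, 3 were higher and 2 lower in spaQ, and at 28 °C, 1 was higher and 1 lower. In this order, calls made up 85.7%, 42.9%, 42.9%, 71.4% and 28.6% of the 7. All genes gave 40.8%, 12.4%, 11.9%, 42.5% and 30.9%. Neither of these calls at 28 °C was kept without the 2 libraries rich in root markers, where PRXCB was the 1 call. Over all genes, that fit called 6683 of 18126 at 28 °C.

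PRXCA (AT3G49110) had 8.14, 8.67 and 11.2 CPM in 22 °C Col-0, 33.7, 114 and 64.3 in 28 °C Col-0, 30.3, 102 and 40.4 in 22 °C spaQ and 18.6, 5.38 and 39.3 in 28 °C spaQ. Both Col-0 at 28 °C and spaQ at 22 °C lay above all Col-0 libraries at 22 °C, and spaQ at 28 °C overlapped the 3 other groups. It rose in Col-0 by a log2 change of 2.88 ± 0.66 (SE, adjusted p = 0.00382), and the interaction was −4.33 ± 0.90 (SE, adjusted p = 0.0121). It was the only member called in opposite directions at the 2 temperatures, higher in 22 °C spaQ by a log2 change of 2.58 ± 0.67 (SE, adjusted p = 0.00801) and lower at 28 °C, at a log2 change of −1.74 ± 0.61 (SE, adjusted p = 0.0447). The second of these calls was lost in 8 of the 12 fits without one library (adjusted p up to 0.166), and the log2 fold change was −2.64 without replicate 3 of 28 °C spaQ (adjusted p = 0.0114). It was also lost without both libraries rich in root markers, −1.26 (adjusted p = 0.0599).

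PRXCB (AT3G49120) measured 46.4, 37.5 and 42.3 CPM in 22 °C Col-0, 72.8, 117 and 123 in 28 °C Col-0, 251, 339.9 and 285 in 22 °C spaQ and 250.3, 42.1 and 212 in 28 °C spaQ. In 22 °C spaQ every library was above every Col-0 library, and at 28 °C replicate 2 of spaQ was near the Col-0 level at 22 °C. It was higher in 22 °C spaQ by a log2 change of 2.79 ± 0.48 (SE, adjusted p = 0.000608). The rise in Col-0, 1.31 (adjusted p = 0.0365), and the interaction, −2.11 (adjusted p = 0.0487), lost their calls in 5 and 9 of the 12 fits without one library (adjusted p up to 0.103 and 0.107). At 28 °C the difference was 0.68 (adjusted p = 0.277) with all libraries and 1.09 (adjusted p = 0.000489) without the 2 rich in root markers.

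Prx37 (AT4G08770), studied in the vasculature, responded to warmth in opposite directions. Its levels were 10.3, 7.83 and 7.61 CPM in 22 °C Col-0, 56.7, 122 and 110.0 in 28 °C Col-0, 109.8, 243 and 149 in 22 °C spaQ and 40, 7.34 and 81 in 28 °C spaQ. The temperature groups did not overlap in either genotype. The log2 fold change with warmth was 3.49 ± 0.65 (SE, adjusted p = 0.00109) in Col-0 and −1.98 ± 0.57 (SE, adjusted p = 0.0394) in spaQ, and the interaction of −5.47 ± 0.87 (SE, adjusted p = 0.00398) kept its call in all alternatives tried. The fall in spaQ lost its call in 8 of the 12 fits without one library (adjusted p up to 0.121). On the spaQ libraries alone the change of Prx37 was −1.99 (adjusted p = 0.154) and was not called. Its neighbour AT4G08780, 93.8% identical in coding sequence, reached at most 12.6 CPM and was not called in any contrast.

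The 3 other relatives fell in Col-0. AT3G32980, the fourth most counted member, had 355, 308 and 285 CPM in 22 °C Col-0, 61.1, 80.7 and 85.1 in 28 °C Col-0, 245, 143 and 194 in 22 °C spaQ and 72.9, 129.9 and 64.1 in 28 °C spaQ. In both genotypes the libraries at 28 °C lay below those at 22 °C. It fell in Col-0, with a log2 change of −2.06 ± 0.26 (SE, adjusted p = 8.4e-05), and in spaQ, with −1.12 ± 0.26 (SE, adjusted p = 0.0147). The call in spaQ was lost without replicate 1 at either temperature (adjusted p up to 0.0676). With the spaQ libraries fitted alone, the fall of AT3G32980 was not called either, at −1.13 (adjusted p = 0.0895). The interaction of 0.94 (adjusted p = 0.107) was not called. At 22 °C it was lower in spaQ, at a log2 change of −0.70 (adjusted p = 0.0389), a call lost in 6 of the 12 fits without one library (adjusted p up to 0.154).

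AT2G38380 had 78.7, 78.3 and 74.5 CPM in 22 °C Col-0, 26.9, 34.2 and 35.7 in 28 °C Col-0, 88.8, 73.6 and 108 in 22 °C spaQ and 34.5, 55 and 46.6 in 28 °C spaQ. It fell with warmth in Col-0, at a log2 change of −1.26 ± 0.18 (SE, adjusted p = 0.000167). In spaQ it fell too, at a log2 change of −0.98 ± 0.18 (SE, adjusted p = 0.00502). Fitted on the spaQ libraries alone, the fall of AT2G38380 was −0.99 (adjusted p = 0.0571) and was not called. AT2G38390 beside it had 29.9, 27.1 and 24.8 CPM in 22 °C Col-0 and 1.49, 7.19 and 4.03 CPM at 28 °C, a log2 change of −2.86 ± 0.42 (SE, adjusted p = 0.000216). In spaQ it ranged from 0.396 to 7.51 CPM, and at 22 °C it was lower than in Col-0, at a log2 change of −2.03 ± 0.42 (SE, adjusted p = 0.00226). At 28 °C AT2G38380 was higher in spaQ by a log2 change of 0.51 (adjusted p = 0.0484), a call lost in 10 of the 12 fits without one library; the estimate was 0.32 without replicate 2 of 28 °C spaQ (adjusted p = 0.205) and 0.30 (adjusted p = 0.24) without both libraries rich in root markers.

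Of the 6 peroxidases known from root hairs, 5 were tested. In Col-0, 4 fell with warmth and 1 rose, and the list median was −3.43. In spaQ 0 were called, with a median of −0.20. At 22 °C, 3 were lower and 1 higher in spaQ, and at 28 °C, 2 were higher. In this order, calls made up 100%, 0%, 80% and 40% of the 5, beside 40.8%, 12.4%, 42.5% and 30.9% of all genes. The one that rose in Col-0 was AT5G39580, described above, and the 4 that fell were RHS18, RHS19, AT4G26010 and AT5G64100.

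RHS19 (AT5G67400), named for its root hair-specific expression, had 19.3, 17.1 and 21.3 CPM in 22 °C Col-0, 0.558, 0.257 and 1.38 in 28 °C Col-0, 9.42, 1.92 and 0.834 in 22 °C spaQ and 0, 9.54 and 0.614 in 28 °C spaQ. Levels in Col-0 fell close to the detection limit at 28 °C, and in spaQ replicate 1 at 22 °C and replicate 2 at 28 °C exceeded all other spaQ libraries. With warmth in Col-0 it fell, with a log2 change of −4.53 ± 0.87 (SE, adjusted p = 0.00127). In 22 °C spaQ it was lower than in Col-0, at a log2 change of −1.94 ± 0.73 (SE, adjusted p = 0.0486), and at a log2 change of −3.74 (adjusted p = 3.29e-05) without the 2 libraries rich in root markers. That call was lost in 8 of the 12 fits without one library (adjusted p up to 0.139).

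RHS18 (AT5G22410), named likewise, was scarcer, with 8.14, 6.43 and 4.03 CPM in 22 °C Col-0, 0.0929, 0 and 0.461 in 28 °C Col-0, 1.51, 0 and 0.417 in 22 °C spaQ and 0, 3.67 and 0 in 28 °C spaQ. Only in 22 °C Col-0 was it above 4 CPM in every library. It fell in Col-0, with a log2 change of −4.67 ± 0.96 (SE, adjusted p = 0.00206). Its interaction of 5.40 (adjusted p = 0.0391) rested on replicate 2 of 28 °C spaQ, and without that library it was −0.46 (adjusted p = 0.844), or 1.57 (adjusted p = 0.914) without both libraries rich in root markers. At 22 °C it was lower in spaQ, at a log2 change of −2.78 (adjusted p = 0.0243), and at a log2 change of −4.75 without replicate 1 of spaQ (adjusted p = 0.0239). This call at 22 °C was lost in 4 of the 12 fits without one library (adjusted p up to 0.0809).

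AT4G26010 had 25.3, 25.4 and 25.5 CPM in 22 °C Col-0, 1.39, 1.03 and 4.15 in 28 °C Col-0, 12.6, 1.15 and 0.834 in 22 °C spaQ and 0.792, 13 and 0.614 in 28 °C spaQ. The 2 spaQ libraries rich in root markers again stood above the other 4. It fell with warmth in Col-0, at a log2 change of −3.43 ± 0.80 (SE, adjusted p = 0.00456). It was −2.02 (adjusted p = 0.049) for spaQ at 22 °C, and −4.61 (adjusted p = 1.47e-05) without those 2 libraries; the call at 22 °C was lost in 8 of the 12 fits without one library (adjusted p up to 0.138). The most abundant of the 4 falling genes, AT5G64100, had 131, 159.6 and 156 CPM in 22 °C Col-0, 30.5, 61.1 and 33.5 in 28 °C Col-0, 213, 64 and 127 in 22 °C spaQ and 158, 82.9 and 59.2 in 28 °C spaQ. It fell in Col-0, with −1.86 ± 0.42 (SE, adjusted p = 0.00383), and all spaQ libraries lay within or above the Col-0 range at 28 °C. Its higher level in 28 °C spaQ, 1.28 (adjusted p = 0.0355), was 0.80 without replicate 1 of spaQ at that temperature (adjusted p = 0.187). The interaction of AT5G64100 was 1.41 (adjusted p = 0.14), and 1.98 (adjusted p = 0.0253) without both libraries rich in root markers.

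The 6 members outside that list with the largest falls in Col-0 had levels at 28 °C far below those at 22 °C. AT1G30870 had the largest fall of any member, from 17.8, 18.7 and 18.1 CPM to 0.186, 0.257 and 0.346 CPM, a log2 change of −6.0 ± 1.15 (SE, adjusted p = 0.00126). In spaQ it had 9.25, 3.45 and 0.834 CPM at 22 °C and 0, 13.7 and 0 CPM at 28 °C, so that its level at 28 °C came from replicate 2 alone. AT5G15180 followed with 9.35, 9.78 and 9.17 CPM at 22 °C and 0.0929, 0.257 and 0.346 CPM at 28 °C in Col-0, and −5.28 ± 0.43 (SE, adjusted p = 1.02e-05). It differed from AT1G30870 in spaQ, where all 6 libraries were low, from 0 to 0.841 CPM, and it was lower than in 22 °C Col-0, at a log2 change of −3.48 ± 0.40 (SE, adjusted p = 3.82e-05). Without both libraries rich in root markers AT1G30870 had 0 counts in 28 °C spaQ and fell there with warmth (adjusted p = 0.0127), and at 22 °C it was lower in spaQ than in Col-0, −3.02 (adjusted p = 4.32e-05), against −1.77 (adjusted p = 0.0967) with them. The interaction of AT5G15180 was 4.60 (adjusted p = 0.0109) and, without them, 4.06 (adjusted p = 0.0869).

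AT5G17820 fell from 56.1, 49.8 and 58.2 CPM to 1.49, 1.54 and 3.0 CPM in Col-0, a log2 change of −4.71 ± 0.73 (SE, adjusted p = 0.000306). In spaQ it had 23.7, 7.28 and 3.34 CPM at 22 °C and 1.58, 19.6 and 2.15 CPM at 28 °C. The highest library at each temperature was the one rich in root markers. At 22 °C spaQ was lower than Col-0, at a log2 change of −2.07 (adjusted p = 0.0173), and at a log2 change of −3.32 (adjusted p = 7.73e-07) without those 2 libraries. Leaving out replicate 2 or replicate 3 of 22 °C spaQ lost that call (adjusted p up to 0.0633).

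AT4G30170 was the most abundant of the 6, with 96.8, 84.7 and 97.1 CPM in 22 °C Col-0 and 6.41, 5.91 and 11.1 CPM at 28 °C, a log2 change of −3.54 ± 0.67 (SE, adjusted p = 0.00125). In spaQ it had 64.1, 18.8 and 26.7 CPM at 22 °C and 1.98, 31.6 and 2.15 CPM at 28 °C. AT3G01190 went from 47.6, 39.1 and 43.9 to 3.9, 1.28 and 3.8 CPM in Col-0, a log2 change of −3.71 ± 0.58 (SE, adjusted p = 0.000328), and in spaQ had 16.8, 5.75 and 3.75 CPM at 22 °C and 0.792, 9.54 and 0.614 CPM at 28 °C. For both genes the Col-0 groups did not overlap, and in spaQ the 2 libraries rich in root markers were the highest of their groups. AT3G01190 was also lower in 22 °C spaQ, at a log2 change of −2.12 (adjusted p = 0.00771). AT3G49960 went from 12.4, 16.8 and 11.9 to 0.279, 0 and 0.922 CPM in Col-0, a log2 change of −4.79 ± 0.87 (SE, adjusted p = 0.000932), and in spaQ had 5.38, 3.07 and 2.08 CPM at 22 °C and 0, 9.54 and 0.614 CPM at 28 °C. With all libraries the change with warmth in spaQ was −1.55 (adjusted p = 0.162) for AT4G30170 and −1.26 (adjusted p = 0.266) for AT3G01190. Once the 2 libraries were left out, both were called as falling in spaQ, at −3.44 (adjusted p = 0.000256) and −2.75 (adjusted p = 0.0155). Both were then also called lower than in Col-0 at 28 °C, at −1.99 (adjusted p = 0.00261) and −2.28 (adjusted p = 0.00971). With all libraries these differences were 0.71 (adjusted p = 0.519) and 0.33 (adjusted p = 0.791). As the libraries left out were the highest of their groups for both genes, these calls are not independent of that choice. At 22 °C spaQ was lower for AT4G30170 and AT3G49960 without them, at −2.02 (adjusted p = 7.57e-06) and −2.36 (adjusted p = 0.00148), and these differences were −1.28 (adjusted p = 0.108) and −1.82 (adjusted p = 0.0577) with them.

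At 28 °C, AT1G30870 and AT3G49960 were called higher in spaQ than in Col-0, by a log2 change of 4.2 (adjusted p = 0.0295) and 2.98 (adjusted p = 0.0413). Without replicate 2 of 28 °C spaQ these log2 fold changes were −3.43 (adjusted p = 0.408) and −0.44 (adjusted p = 0.823). The interactions of AT1G30870, AT3G49960 and AT5G17820, 5.97, 4.79 and 4.11, were −1.73, 1.31 and 1.83 without that library (adjusted p = 0.761, 0.69 and 0.381). Without both libraries rich in root markers, the interaction of AT5G17820 was called, 3.15 (adjusted p = 0.00815), and those of AT1G30870 and AT3G49960 were not, −0.38 (adjusted p = 0.761) and 1.90 (adjusted p = 0.506). Root hair markers moved with these genes: the 3 tested ones fell in Col-0, and their sums per library are those given above. Their part in these results was not tested.

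**Figure D4:**
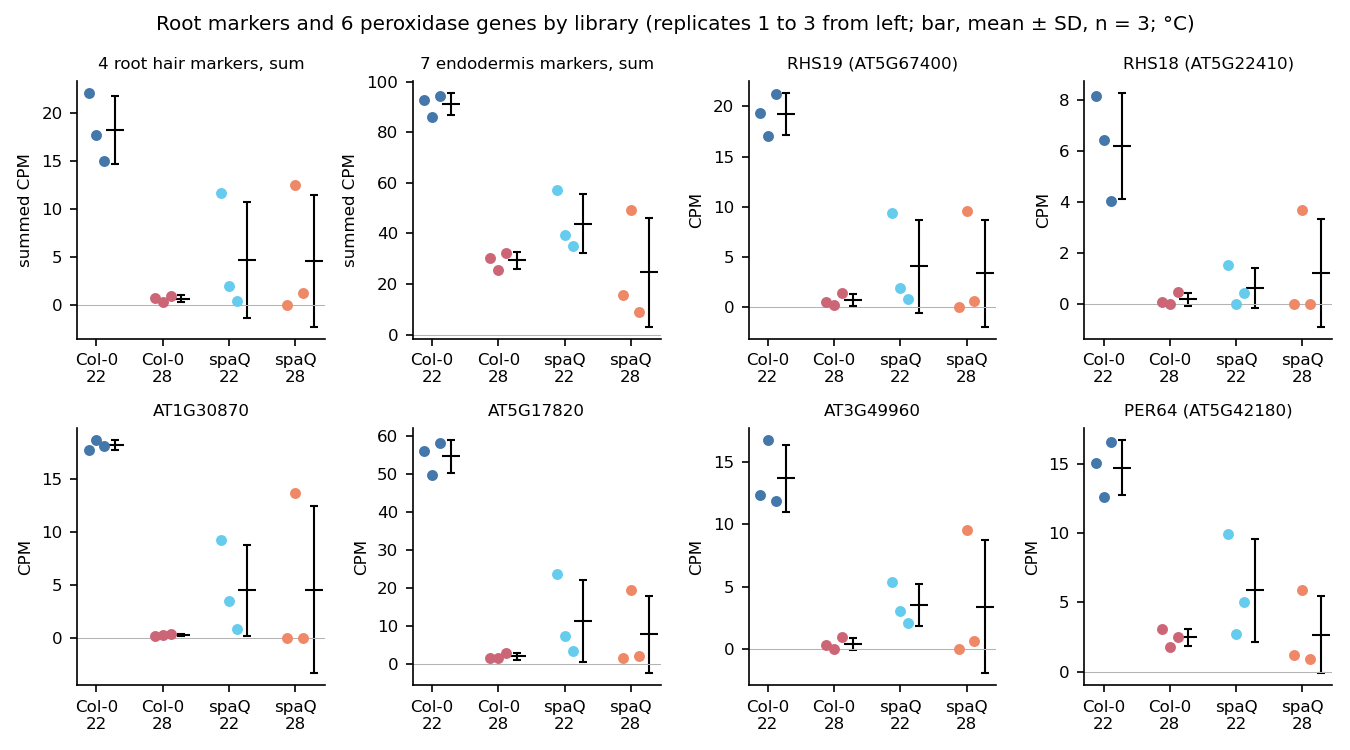
The first 2 panels give the summed CPM of the root hair and endodermis markers in each library, and the other 6 the CPM of single peroxidase genes, with the mean ± SD (n = 3) beside each group. In every panel Col-0 at 22 °C is highest, and in spaQ the highest library is replicate 1 at 22 °C and replicate 2 at 28 °C.

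The 5 peroxidases linked to the lignin of the root barrier gave 3 falls and 0 rises in Col-0, with a list median of −1.66, and 0 calls in spaQ, with a median of −0.82. At 22 °C, 2 were lower in spaQ, and at 28 °C, 1 was lower. In this order, calls made up 60%, 0%, 40% and 20% of the 5, beside 40.8%, 12.4%, 42.5% and 30.9% of all genes. These counts depended on the 2 libraries rich in root markers. Without them 3 fell with warmth in spaQ, with a median of −1.85, and 4 were lower than in Col-0 at each temperature. Calls over all genes grew in that fit too. Of 18126 genes, 2695 were called for warmth in spaQ, and 8255 and 6683 for spaQ against Col-0 at 22 and 28 °C. PER64 (AT5G42180), which lies at the Casparian strip and is needed for its lignin, had 15.1, 12.6 and 16.6 CPM in 22 °C Col-0, 3.07, 1.8 and 2.53 in 28 °C Col-0, 9.92, 2.68 and 5.0 in 22 °C spaQ and 1.19, 5.87 and 0.921 in 28 °C spaQ. Col-0 at 22 °C lay above every other library. It fell in Col-0, with a log2 change of −2.50 ± 0.47 (SE, adjusted p = 0.00109), while the difference of spaQ from Col-0 at 22 °C was −1.19 (adjusted p = 0.051) and the change with warmth in spaQ −1.14 (adjusted p = 0.209). Without those 2 libraries both were called, at −1.93 (adjusted p = 0.000299) and −1.85 (adjusted p = 0.0441), and at 28 °C spaQ was lower, −1.36 (adjusted p = 0.0492).

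RCI3 (AT1G05260), named for induction by cold, had 25.9, 30.5 and 25.7 CPM in 22 °C Col-0, 7.62, 6.17 and 11.5 in 28 °C Col-0, 15.6, 13.8 and 15 in 22 °C spaQ and 3.17, 17.1 and 3.07 in 28 °C spaQ. It fell in Col-0, with −1.66 ± 0.41 (SE, adjusted p = 0.00617). In 28 °C spaQ replicate 2 stood above the other 2 libraries, and the change in spaQ was −0.82 (adjusted p = 0.279). Leaving out the 2 libraries rich in root markers, RCI3 fell in spaQ, −2.21 (adjusted p = 0.00203), and was lower than in Col-0 at 22 °C, −0.91 (adjusted p = 0.00636), and at 28 °C, −1.53 (adjusted p = 0.00337). AT1G44970 went from 4.82, 5.31 and 7.16 to 0.836, 0.514 and 1.27 CPM in Col-0, a log2 change of −2.61 ± 0.52 (SE, adjusted p = 0.00166). In 22 °C spaQ it had 2.19, 3.07 and 0.417 CPM and was lower than in Col-0, at a log2 change of −1.55 (adjusted p = 0.032), a call lost in 5 of the 12 fits without one library (adjusted p up to 0.126). In the fit without both libraries AT1G44970 had 0 counts in 28 °C spaQ; it fell there with warmth and was lower than in Col-0 (adjusted p = 0.045 and 0.0443).

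PRX72 (AT5G66390), a lignification enzyme, was not called for warmth in Col-0, at −0.26 (adjusted p = 0.531), and was lower in spaQ. It had 27.4, 20.1 and 26.2 CPM in 22 °C Col-0, 22.5, 12.1 and 25.7 in 28 °C Col-0, 13.8, 9.2 and 8.76 in 22 °C spaQ and 5.15, 13 and 5.22 in 28 °C spaQ. The log2 fold change against Col-0 was −1.15 ± 0.34 (SE, adjusted p = 0.0162) at 22 °C and −1.34 ± 0.35 (SE, adjusted p = 0.0106) at 28 °C. Without replicate 2 of 28 °C spaQ the latter was −2.03 (adjusted p = 0.000655), and the call at 22 °C was lost in 3 of the 12 fits without one library (adjusted p up to 0.0604). AT4G11290 was called in none of the 5 contrasts, with 23.8, 20.1 and 28.2 CPM in 22 °C Col-0, 16.3, 15.7 and 27 in 28 °C Col-0, 21.4, 17.2 and 10.4 in 22 °C spaQ and 19.4, 43.5 and 5.52 in 28 °C spaQ. The 6 tested endodermis markers all fell in Col-0 with warmth, and their part in these results was not tested.

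**Figure D5:**
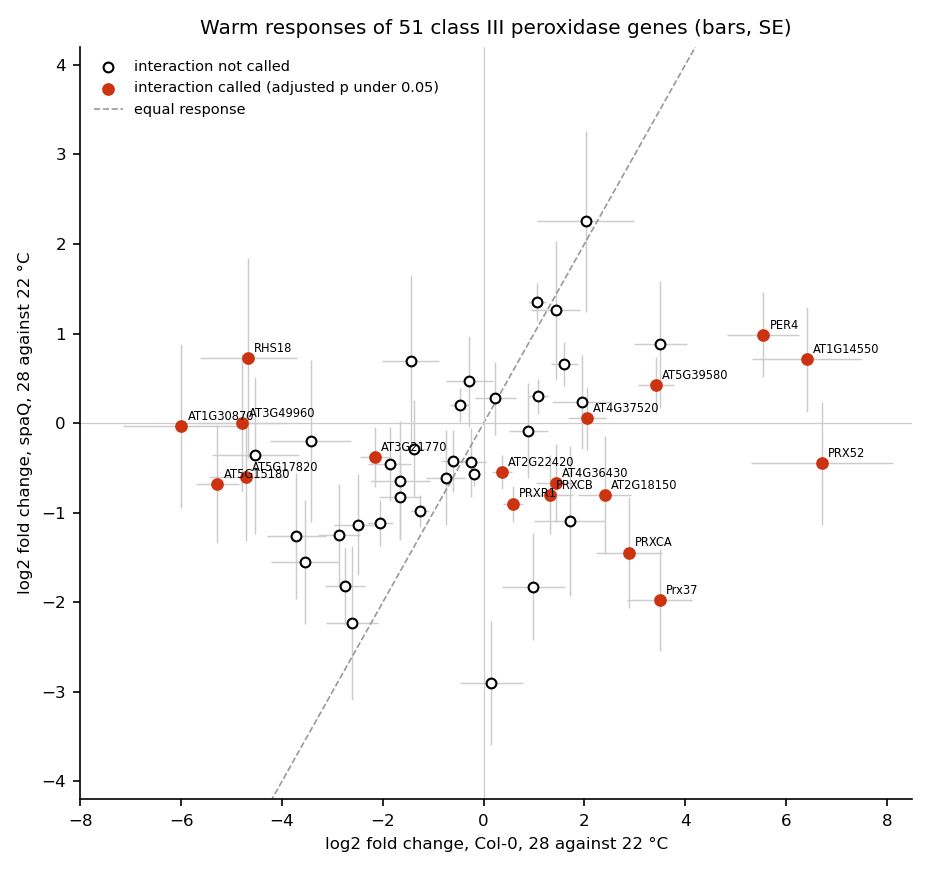
Each point is one of the 51 tested genes, placed by its log2 fold change with warmth in Col-0 and in spaQ, with SE bars; filled points are the 18 genes with a called interaction, and the dashed line marks equal responses. The filled points lie off the dashed line on the side of a smaller or opposite response in spaQ.

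The interaction divides its 18 members into 12 whose difference was negative and 6 whose difference was positive, beside 5.29% and 6.58% of all genes in these directions. In all 18 the spaQ estimate was smaller in size than the Col-0 estimate or of the opposite sign, and in 10 it was of the opposite sign. The warm change in spaQ was called for only 2 of the 18, Prx37 and PRXR1. Most of the opposite signs thus rest on estimates that were not called, such as 0.0012 for AT3G49960. The 12 were PER4, AT1G14550, PRX52, AT5G39580, PRXCA, PRXCB, Prx37, PRXR1, AT2G18150, AT2G22420, AT4G36430 and AT4G37520. The 6 were AT1G30870, AT3G49960, AT5G15180, AT5G17820, RHS18 and AT3G21770. Only 5 of the 18 kept their call without each of the 12 libraries in turn: PER4, AT5G39580, PRXCA, Prx37 and PRXR1. The count was 7, 6 and 6 without replicates 1, 2 and 3 of 22 °C Col-0, 10 without replicate 2 or replicate 3 of 28 °C Col-0, and 8 and 10 without replicates 2 and 3 of 22 °C spaQ. All-gene calls fell as well, from 2117 to 928, 885, 1051, 1170, 1273, 1007 and 968 in the same order. The members' count was also 18 without the 2 libraries rich in root markers, of which 14 were the same genes. In that fit 2498 of 18126 genes were called.

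AT4G37520, which is in no list, was the fifth most counted member. It had 26.2, 36.1 and 35.4 CPM in 22 °C Col-0, 113, 126 and 167 in 28 °C Col-0, 200.4, 291 and 166 in 22 °C spaQ and 302, 90.3 and 291 in 28 °C spaQ. All other libraries exceeded Col-0 at 22 °C, and replicate 2 was the lowest of 28 °C spaQ. It rose by a log2 change of 2.05 ± 0.38 (SE, adjusted p = 0.00106) with warmth in Col-0 and differed by a log2 change of 2.75 ± 0.39 (SE, adjusted p = 0.000165) for spaQ at 22 °C. Its interaction of −2.0 (adjusted p = 0.0273) lost its call in 6 of the 12 fits without one library (adjusted p up to 0.0723). Its neighbour AT4G37530 rose in Col-0 by a log2 change of 1.96 (adjusted p = 0.0184) and was higher in 22 °C spaQ by a log2 change of 2.25 (adjusted p = 0.00992), the first of these calls being lost in 3 of the 12 (adjusted p up to 0.0624). Since the 2 genes share a stretch of 50 nt near the 3′ end and are 92.4% identical, reads could have been divided between them. At 28 °C neither was called in spaQ against Col-0, at 0.75 (adjusted p = 0.134) and 0.53 (adjusted p = 0.485), and both were higher without the 2 libraries rich in root markers, at 1.07 (adjusted p = 0.00118) and 0.98 (adjusted p = 0.00602). The interaction of AT4G37530 was −1.72 (adjusted p = 0.182) and then −1.67 (adjusted p = 0.0126).

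AT2G37130 fell with warmth in both genotypes. Its levels were 123, 120.2 and 134 CPM in 22 °C Col-0, 17.5, 18 and 20.6 in 28 °C Col-0, 69.4, 21.8 and 49.2 in 22 °C spaQ and 11.5, 23.2 and 4.6 in 28 °C spaQ. The groups at 28 °C overlapped, and those at 22 °C did not. The log2 fold change was −2.75 ± 0.40 (SE, adjusted p = 0.000205) in Col-0 and −1.82 ± 0.44 (SE, adjusted p = 0.0183) in spaQ, and it was lower in 22 °C spaQ, at a log2 change of −1.39 (adjusted p = 0.0112). The call in spaQ was lost without replicate 1 at 22 °C and without replicate 1 at 28 °C (adjusted p up to 0.0963). A fit of the spaQ libraries alone did not call that fall, at −1.83 (adjusted p = 0.118). The difference of spaQ from Col-0 at 28 °C, −0.47 (adjusted p = 0.474), was not called, and without both libraries rich in root markers it was called, at −1.34 (adjusted p = 0.011).

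AT1G71695 was lower in spaQ at both temperatures. It had 177, 177 and 153 CPM in 22 °C Col-0, 155, 139 and 150.1 in 28 °C Col-0, 109, 95.4 and 85.5 in 22 °C spaQ and 62.6, 75.3 and 57.7 in 28 °C spaQ. Every spaQ library was below every Col-0 library, at a log2 change of −0.80 ± 0.13 (SE, adjusted p = 0.000414) at 22 °C and −1.18 ± 0.13 (SE, adjusted p = 2.62e-05) at 28 °C. With warmth it fell in spaQ, −0.57 (adjusted p = 0.0153), and was not called in Col-0, −0.19 (adjusted p = 0.26), and the interaction of −0.38 (adjusted p = 0.198) was not called. The fall in spaQ lost its call without replicate 1 at 22 °C or replicate 3 at 28 °C (adjusted p up to 0.0763). A fit of the spaQ libraries alone did not call it, at −0.58 (adjusted p = 0.0988). AT2G35380 was also lower in spaQ throughout, with 12.4, 12.9 and 10.7 CPM in 22 °C Col-0, 4.37, 3.08 and 5.88 in 28 °C Col-0, 1.18, 0.766 and 0.834 in 22 °C spaQ and 0.396, 0.734 and 1.23 in 28 °C spaQ. Its log2 fold change was −3.56 ± 0.35 (SE, adjusted p = 1.1e-05) at 22 °C and −2.46 ± 0.39 (SE, adjusted p = 0.000406) at 28 °C, and it fell in Col-0 with warmth, at a log2 change of −1.38 (adjusted p = 0.000869). AT5G40150 was lower in spaQ, at a log2 change of −1.44 (adjusted p = 0.00172) at 22 °C and −1.25 (adjusted p = 0.00654) at 28 °C, the latter being −1.94 without replicate 2 of spaQ (adjusted p = 0.000302).

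AT4G33420 was higher in spaQ and rose with warmth in Col-0. It had 17.5, 21.2 and 18.1 CPM in 22 °C Col-0, 47.8, 70.4 and 56 in 28 °C Col-0, 48.4, 71.3 and 87.6 in 22 °C spaQ and 131, 71.2 and 123 in 28 °C spaQ. Col-0 at 22 °C lay below all other libraries. The log2 fold change was 1.60 ± 0.26 (SE, adjusted p = 0.000477) for warmth in Col-0, 1.85 ± 0.27 (SE, adjusted p = 0.000201) for spaQ at 22 °C and 0.90 (adjusted p = 0.0124) at 28 °C, the last lost without replicate 1 of 28 °C Col-0 or of 28 °C spaQ (adjusted p up to 0.0603). This gene overlaps another on the opposite strand, so its counts are uncertain. Its change in spaQ, 0.66 (adjusted p = 0.0982), and its interaction, −0.94 (adjusted p = 0.109), were called without the 2 libraries rich in root markers, at 0.67 (adjusted p = 0.0196) and −0.99 (adjusted p = 0.012).

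A further 4 members rose in Col-0 and were lower in 28 °C spaQ than in 28 °C Col-0. AT5G06730 rose from 1.51, 1.12 and 2.24 to 13.4, 27.7 and 17.9 CPM in Col-0, a log2 change of 3.51 ± 0.52 (SE, adjusted p = 0.000231). In 28 °C spaQ it had 1.58, 0.978 and 6.45 CPM, lower than in Col-0, at a log2 change of −2.68 ± 0.49 (SE, adjusted p = 0.00107). AT2G18150 rose from 4.22, 2.8 and 1.79 to 12.8, 20.3 and 13.5 CPM, a log2 change of 2.40 ± 0.53 (SE, adjusted p = 0.00303). With 0.396, 0.978 and 6.45 CPM in 28 °C spaQ it was lower there, at a log2 change of −2.51 (adjusted p = 0.00367), and at a log2 change of −4.29 without replicate 3 of spaQ (adjusted p = 9.83e-05). Its interaction of −3.21 (adjusted p = 0.029) was −4.98 without that library (adjusted p = 0.00171). AT4G36430 and AT1G68850 rose in Col-0 by a log2 change of 1.44 (adjusted p = 0.0116) and 1.43 (adjusted p = 0.0305), and were lower in 28 °C spaQ, at a log2 change of −1.24 (adjusted p = 0.0319) and −2.0 (adjusted p = 0.0114). For AT1G68850 the latter was −3.0 without replicate 3 of 28 °C spaQ (adjusted p = 0.00221), and it lost its call without replicate 3 of 28 °C Col-0 (adjusted p = 0.0614). Among the 12 fits without one library, the rise of AT1G68850 lost its call in 5, the difference of AT4G36430 at 28 °C in 4 and the interaction of AT2G18150 in 6 (adjusted p up to 0.154, 0.114 and 0.0819). At 22 °C the difference of AT4G36430 was 0.87 (adjusted p = 0.127) with all libraries and 1.35 (adjusted p = 0.00604) without those rich in root markers.

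AT1G49570 had the largest fall of any member in spaQ. It had 4.52, 6.15 and 5.37 CPM in 22 °C Col-0, 2.42, 13.4 and 4.61 in 28 °C Col-0, 18.8, 24.9 and 9.59 in 22 °C spaQ and 5.15, 2.2 and 0.307 in 28 °C spaQ. In spaQ all libraries at 28 °C lay below those at 22 °C, with a log2 change of −2.91 ± 0.69 (SE, adjusted p = 0.0175), while Col-0 gave 0.15 (adjusted p = 0.868). The interaction of −3.06 (adjusted p = 0.0531) was not called. At 22 °C it was higher in spaQ by a log2 change of 1.74 (adjusted p = 0.031). The call for warmth in spaQ was lost without replicate 1 or 2 at 22 °C or replicate 3 at 28 °C (adjusted p up to 0.0553). On the spaQ libraries alone that fall was −2.90 (adjusted p = 0.053) and was not called. AT5G19890 was higher in 22 °C spaQ by a log2 change of 2.09 (adjusted p = 0.0142), with 24.2, 18.4 and 4.59 CPM against 3.62, 4.75 and 3.36 CPM in Col-0. The calls of AT1G49570 and AT5G19890 at 22 °C were lost in 5 and 2 of the 12 fits without one library (adjusted p up to 0.102 and 0.0846). Leaving out both libraries rich in root markers gave −2.82 (adjusted p = 0.0503) for warmth in spaQ on AT1G49570, and −3.18 (adjusted p = 0.0328) for the interaction of AT5G19890, which was −2.82 (adjusted p = 0.0511) with all libraries.

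Of the others, AT3G21770 fell in Col-0 from 27.7, 33.5 and 30.2 to 6.32, 9.51 and 5.41 CPM, a log2 change of −2.17 ± 0.30 (SE, adjusted p = 0.000137). In spaQ it had 14.5, 11.5 and 9.59 CPM at 22 °C and 4.36, 14.4 and 7.98 CPM at 28 °C, and its interaction of 1.78 (adjusted p = 0.0237) was 1.15 without replicate 2 of 28 °C spaQ (adjusted p = 0.0854) and 1.38 (adjusted p = 0.0403) without both libraries rich in root markers. AT2G18980 fell in Col-0, at a log2 change of −1.66 (adjusted p = 0.0425), where replicate 2 at 28 °C had 31.1 CPM and the other 2 had 4.93 and 5.53 CPM. Without that replicate the log2 fold change was −2.88 (adjusted p = 0.000695). The call for AT2G18980 was lost in 6 of the 12 fits without one library (adjusted p up to 0.162), where the log2 change was as small as −1.18. AT3G28200 was higher in 28 °C spaQ by a log2 change of 0.59 (adjusted p = 0.0311), and by 0.25 without replicate 2 of spaQ (adjusted p = 0.186) or 0.22 (adjusted p = 0.232) without both libraries rich in root markers. That call was lost in 6 of the 12 fits without one library. AT5G58390 was lower in 28 °C spaQ, at a log2 change of −1.81 (adjusted p = 0.00679). AT5G64110 and AT5G14130 were called in none of the 5 contrasts; without both libraries rich in root markers AT5G64110 rose in spaQ, 1.22 (adjusted p = 0.0407).

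Several members lie beside a near copy, and near copies did not always move alike. PRXCA and PRXCB are 90.4% identical in coding sequence, AT2G38380 and AT2G38390 90.6%, and Prx37 and AT4G08780 93.8%. AT5G64100, AT5G64110 and AT5G64120 lie in one row at 63.1% to 70.0% identity and were called differently: AT5G64100 fell with warmth in Col-0, AT5G64120 rose, and AT5G64110, with 10.9, 14.5 and 13.9 CPM at 22 °C and 14, 15.9 and 16.6 CPM at 28 °C in Col-0, was not called, a log2 change of 0.24 (adjusted p = 0.677). PA2 and AT5G06730 are 80.8% identical. In all, 8 members share a stretch of 50 nt within the last 500 nt of their transcripts with another gene. They are PRXCB, Prx37, AT4G08780, AT4G37520, AT4G37530, AT2G38390, AT1G05240 and AT1G05250. Another gene on the other strand overlaps 9: AT1G30870, AT4G26010, RHS19, PER64, AT5G51890, AT4G33420, AT5G40150, AT5G14130 and AT4G08780. Counts of all these members are uncertain.

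The 3 members below the count filter were AT1G05240, with 1 count in 1 Col-0 library at 28 °C and 0 in the other 11, and AT1G05250 and AT5G58400, with 0 counts in all 12. AT1G05240 and AT1G05250 have identical coding sequences, so that reads of the 2 cannot be told apart there. Of the 19 family genes outside the 54, 4 were tested and 4 had no counts. All 4 tested ones were called for warmth in Col-0, with AT3G17070 and AT5G19880 higher and AT1G34510 and AT2G34060 lower. For AT5G19880 the interaction was also called.

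Other genes of the same chemistry were counted from lists of their own. NADPH oxidases (RBOH) produce the superoxide from which peroxidases draw hydrogen peroxide, and 6 of 10 were tested. In Col-0, 2 rose and 2 fell with warmth, 66.7% of the 6 beside 40.8% of all genes, and 0 were called in spaQ. RBOHD, the oxidase of the defence burst, had 14.5, 15.9 and 18.8 CPM in 22 °C Col-0, 50.6, 89.7 and 63.5 in 28 °C Col-0, 52.8, 103 and 79.6 in 22 °C spaQ and 112, 43.3 and 122 in 28 °C spaQ. Col-0 at 22 °C lay below all other libraries. Its log2 fold change was 2.03 ± 0.37 (SE, adjusted p = 0.00101) with warmth in Col-0, 2.23 ± 0.38 (SE, adjusted p = 0.000609) for spaQ at 22 °C and −1.79 (adjusted p = 0.0381) for the interaction. RHD2 (RBOHC), the root hair oxidase, and RBOHF were called in none of the contrasts. Without the 2 libraries rich in root markers RHD2 was lower in spaQ, at −1.50 (adjusted p = 0.0073) at 22 °C and −0.81 (adjusted p = 0.0468) at 28 °C, and RBOHD was higher at 28 °C, at 0.75 (adjusted p = 0.00784). Lowest in the list was AT4G25090, −2.87 (adjusted p = 0.00143) with warmth in Col-0 and −1.80 (adjusted p = 0.0211) for spaQ at 22 °C.

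Monolignol enzymes make the substrates of lignin peroxidases, and all 14 were tested. In spaQ 11 were higher and 0 lower than in 22 °C Col-0, with a list median of 0.81, and 7 were higher and 1 lower at 28 °C, with a median of 0.42. That is 78.6% and 57.1% of the 14, beside 42.5% and 30.9% of all genes. With warmth, 4 rose and 2 fell in Col-0, 42.9% of the 14, which is near the 40.8% of all genes. In spaQ 1 rose and 2 fell, 21.4% beside 12.4%. The largest difference at 22 °C was that of PAL1, an entry enzyme of the pathway, at 1.77 ± 0.24 (SE, adjusted p = 0.000126), and at 28 °C that of CAD4, the alcohol dehydrogenase AT3G19450, at 1.58 ± 0.13 (SE, adjusted p = 3.76e-06). PAL4 was the one lower at 28 °C, a log2 change of −1.14 (adjusted p = 0.0217). In Col-0 warmth raised CAD5 most, a log2 change of 1.85 (adjusted p = 0.00067), and lowered AT3G19450 most, a log2 change of −1.70 (adjusted p = 9.62e-06). In spaQ, CYP98A3 rose, a log2 change of 0.44 (adjusted p = 0.0385), and AT3G19450 fell most, a log2 change of −0.96 (adjusted p = 0.0011). The interaction was called for 2, AT3G19450 at 0.74 (adjusted p = 0.0241) and CCoAOMT1 at −0.72 (adjusted p = 0.0334), 14.3% of the 14 beside 11.9% of all genes. Without the 2 libraries rich in root markers, 10 rose or fell with warmth in Col-0 and 5 in spaQ, and 11 differed at 28 °C. The interaction was then called for 5, among them CCoAOMT1 but not AT3G19450, 0.54 (adjusted p = 0.0634). In the same order, that fit called 8705, 2695, 6683 and 2498 of 18126 genes.

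Laccases also polymerise monolignols, and 9 of 17 were tested. With warmth 4 fell and 0 rose in Col-0, 44.4% of the 9 and near the 40.8% of all genes, and 0 were called in spaQ. In spaQ 5 were lower and 0 higher at 22 °C, with a list median of −1.71, and 4 were lower and 2 higher at 28 °C. These calls are 55.6% and 66.7% of the 9, beside 42.5% and 30.9% of all genes. LAC11 was lowest in 22 °C spaQ, a log2 change of −2.74 ± 0.34 (SE, adjusted p = 6.03e-05), LAC3 fell most in Col-0, a log2 change of −1.95 (adjusted p = 0.0276), and at 28 °C LAC1 was lowest, a log2 change of −3.71 (adjusted p = 0.00119), and LAC7 highest, a log2 change of 2.49 (adjusted p = 0.00823). The interaction was called for LAC8 alone, 11.1% of the 9 beside 11.9% of all genes, at 1.36 (adjusted p = 0.0298). Without the 2 libraries rich in root markers it was 0.88 (adjusted p = 0.084), and LAC7 was called in its place, at 2.65 (adjusted p = 0.014).

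Regulators of peroxidase genes were represented by UPB1 and MYB36. UPB1, a bHLH factor known to repress peroxidase genes in the root, had 10.6, 8.95 and 9.62 CPM in 22 °C Col-0, 6.6, 8.48 and 7.83 in 28 °C Col-0, 62.7, 60.2 and 97.6 in 22 °C spaQ and 84.7, 82.2 and 53.4 in 28 °C spaQ. Every spaQ library lay above every Col-0 library, by a log2 change of 2.91 ± 0.24 (SE, adjusted p = 3.01e-06) at 22 °C and 3.28 ± 0.23 (SE, adjusted p = 8.23e-07) at 28 °C, and it was not called for warmth. MYB36, which activates Casparian strip genes, had 3.62, 6.15 and 4.7 CPM in 22 °C Col-0, 2.04, 1.28 and 2.88 in 28 °C Col-0, 8.41, 9.2 and 8.34 in 22 °C spaQ and 4.36, 5.63 and 2.46 in 28 °C spaQ. It fell with warmth in Col-0, with a log2 change of −1.14 ± 0.34 (SE, adjusted p = 0.0166), and was higher in 22 °C spaQ by a log2 change of 0.83 (adjusted p = 0.0493), which was 0.88 without the 2 libraries rich in root markers (adjusted p = 0.0577).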

How the data were processed

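Whole-number read counts per gene for 12 libraries were deposited, one column per library, not normalised and not pooled. Per the submitters' processing notes FastQC, Bowtie2, TopHat, HTSeq and edgeR were used; their settings, the genome build and the strand setting are not given in the sources used here. The 5 summary lines of the table were left out; its count of ambiguous reads came to 0.455% to 0.62% of gene counts. Groups follow the sample titles.

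Genes passing filterByExpr, 17841 of 33655, were scaled by TMM (factors 0.917 to 1.16) and tested in edgeR 4.0.16 (R 4.3.3) with glmQLFit and two-sided glmQLFTest, with 1 coefficient per group over all 12 libraries. Benjamini-Hochberg adjustment covered all tested genes, and calls were made at an adjusted p under 0.05. SE were derived from the estimate and its F statistic. The script was tested on simulated data. Names and coding identities came from RefSeq's TAIR10.1 annotation, in which all 54 members matched.

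The members and lists were chosen with earlier results of these data known. The genes named were the 10 most counted members, the 5 highest and 5 lowest called in each contrast, all members of the role lists, neighbours by locus number, members under the filter, RBOHC, RBOHD, RBOHF, UPB1, MYB36, and the extremes of the other lists. Further members were named after their values were seen. Alternatives were DESeq2 1.42.0 size factors, library totals, DESeq2's Wald test, other count filters, fits to only the libraries compared, a replicate block, and leaving out each library. A fit without both spaQ libraries rich in root markers was added after seeing the data. Sequences served only for the identities and shared stretches.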

Additional observations from a re-analysis of the deposited data

Results flagged for a closer look

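The warm responses of 18 peroxidase genes differed between spaQ and Col-0 by the interaction test (edgeR, adjusted p under 0.05 over all genes), and each value is the log2 response in spaQ less the one in Col-0. It was negative for 12 genes. Among the burst relatives it was −4.33 for PRXCA, −2.11 for PRXCB and −5.47 for Prx37. For the lignin-linked genes it was −4.56 for PER4, −7.16 for PRX52 and −0.91 for AT2G22420. It was −5.70 for AT1G14550, −2.99 for AT5G39580, −1.48 for PRXR1, −3.21 for AT2G18150, −2.11 for AT4G36430 and −2.0 for AT4G37520. Of these genes only PER4, AT5G39580, PRXCA, Prx37 and PRXR1 kept their call without each library in turn. Among the 12 fits without one library, the call was lost in 10 for AT4G36430 (adjusted p up to 0.0845), in 10 for AT2G22420 and in 9 for PRXCB.

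The interaction was positive for 6 genes: 5.97 for AT1G30870, 4.79 for AT3G49960, 4.60 for AT5G15180, 4.11 for AT5G17820, 5.40 for RHS18 and 1.78 for AT3G21770. Without replicate 2 of 28 °C spaQ none of these 6 kept its call, with adjusted p from 0.0833 to 0.844. Without both that library and replicate 1 of 22 °C spaQ, 2 of the 6 were called, AT5G17820 at 3.15 (adjusted p = 0.00815) and AT3G21770 at 1.38 (adjusted p = 0.0403).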

How the results depend on the processing

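Of the 116 calls of a member in a contrast, 72 kept their call and direction under all alternatives; over 2294 recomputed values 290 lost the call and 7 reversed. In spaQ, the 8 members called for warmth became 1 when only the libraries compared were fitted and 17 without the 2 libraries rich in root markers. Leaving out one library gave 4 to 26. Over all genes the 2217 calls became 418 and 2695 in these fits, and 1088 and 4024 where 4 and 26 members were called. The interaction's 18 became 6 to 25 when one library was left out. The other contrasts gave 32 to 42 (Col-0 warmth), 25 to 38 (spaQ against Col-0 at 22 °C) and 14 to 23 (at 28 °C). In fits that gave these ends, all-gene calls were 5817 and 8438, 6144 and 8503, and 4269 and 6346. For the interaction they were 885 and 2838. The reversed values of AT1G30870 were −3.43 and −3.40 for spaQ against Col-0 at 28 °C and −1.73 and −0.38 for the interaction, first without replicate 2 of 28 °C spaQ, then without both libraries; leaving out others gave up to 4.78 and 7.24. For RHS18 the interaction was −0.46 without that replicate (up to 7.36 without others), and for AT3G49960 spaQ against Col-0 at 28 °C was −0.44 and −0.46 without it and without both (up to 4.07 without others). The cause was not tested. Library totals moved the all-gene median (log2) from −0.02 to 0.19 for warmth in Col-0, from 0.06 to −0.12 for the interaction and from 0.03 to −0.23 for spaQ against Col-0 at 28 °C. With the replicate number as a block, 35, 7, 30, 15 and 13 members were called in the 5 contrasts, and 6688, 1587, 6961, 5003 and 1343 of all genes. Deviations of same-numbered libraries had a mean r of −0.0427 over 18 pairs, from −0.365 to 0.178, with 2 over 0.1. With 3 libraries per group this cannot settle whether equal numbers share a culture or preparation, and the labels do not say. For the interaction, a fit to only the libraries compared was not run, since it compares all 12. Direction was followed only for called members. Counts near 0 limit what can be said of RHS18, PRX52 and AT5G15180.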
